A study of Homo sapiens with 12 samples.

Results

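The 10 genes described here mark the epithelial or the mesenchymal state of a cell: the adhesion proteins EPCAM, CDH1, CDH2 and CDH6, the filament protein VIM, and the transcription factors SNAI1, SNAI2, ZEB1, GRHL2 and OVOL2. They were chosen by name from the table of normalized reads, which lists 28035 genes. Of the 10 genes, 9 had values, and 8 of those averaged at least 10 normalized reads over the libraries and entered the test, as did 15990 genes in all. ZEB1 lay under that minimum and is given by its read counts. SNAI2 was not analysed here.

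The cells were OVCAR-3, an established human ovarian adenocarcinoma line labelled as epithelial and of wild-type genotype. Messenger RNA was sequenced after 6 hours in 4 groups of 3 libraries: the solvent DMSO, FC-A (Fusicoccin A, a fungal compound that stabilizes 14-3-3 protein complexes), IFNa (interferon alpha), and the Combination of FC-A with IFNa. All groups share the line, the genotype and the time, and the sources used here state no doses. The study pairs the 2 agents, so each can be read with and without the other. Nothing in the labels says whether the libraries of a group are separate cultures. P-values here weigh a difference against the spread among these libraries, which the main test moderates for each gene with that of other genes. That spread may be technical.

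In an epithelium, E-cadherin (CDH1) and EPCAM hold neighbouring cells together, and in the epithelial-mesenchymal transition cells lose such contacts and gain N-cadherin (CDH2) and the intermediate filament protein vimentin (VIM). SNAI1, SNAI2 and ZEB1 are repressors that bind E-box sequences and lower CDH1, while GRHL2 and OVOL2 are factors that maintain epithelial genes and oppose ZEB1. Many carcinoma cells carry features of both states at once, and CDH6 is a cadherin of kidney and ovarian carcinoma cells.

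With IFNa, the repressor SNAI1 rose 1.81-fold and the epithelial factors GRHL2 and OVOL2 fell by 0.37 and 0.51 on the log2 scale. CDH1, which SNAI1 is known to repress, stood 1.15-fold higher with the deposited scaling but at -0.02 (log2) after quantile normalization. CDH2 was 1.13-fold lower, a call lost in 10 of 26 alternative settings. VIM was 1.66-fold higher with both agents than with DMSO. CDH6 was lower by 0.15 on the log2 scale with FC-A averaged over cells with and without IFNa (adjusted p = 0.0272); FC-A against DMSO alone did not pass (adjusted p = 0.245), and the averaged call was lost in 10 of 24 alternative settings, 8 of them leaving out 1 library. EPCAM lay farthest from its DMSO level with FC-A, at -0.06 (log2) on the deposited scaling, and all its groups overlapped.

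Libraries held 31181742 to 39529357 reads in genes. The values are read counts divided by 1 size factor per library, and these normalized reads summed to 31691975 to 32728638 in libraries without IFNa and to 36271212 to 37624779 with it. The choice of scaling therefore bears on every comparison with IFNa: scaling to equal totals moved the median log2 change of all genes for IFNa against DMSO from -0.01 to -0.20, and quantile normalization moved it to -0.10. Of the genes called in that comparison, 54.2% were higher with the deposited size factors, 36.6% after quantile normalization and 25.5% with equal totals. Of 10 ovarian epithelial markers, PAX8, MUC16, KRT7, KRT8, KRT18 and KRT19 were the most abundant, and WT1 was lowest, at 562.9 to 785.5 normalized reads. The 10 summed to 397577 to 486453 normalized reads per library, much of it keratins (KRT8 averaged 164275 in DMSO). The first principal component, with 77.7% of the variance, separated libraries with IFNa from those without. On the second (6.51%), replicate 3 was lowest in every group.

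The levels of the genes spanned several orders of magnitude. Per kilobase of exon, from the GENCODE 29 models since the authors' annotation is not given in the sources used here, CDH6 was highest in DMSO, with 3869 normalized reads (3836 to 3901 over the 3 libraries), followed by EPCAM with 3540 (3519.7 to 3569) and CDH1 with 1255 (1228 to 1279.9). GRHL2 followed with 539 normalized reads per kilobase (529 to 553) and OVOL2 with 486 (455 to 506). SNAI1 reached 173 (155 to 185), CDH2 135 (128 to 141) and VIM 60 (57.1 to 63.3). No neighbours in this order overlapped in DMSO, so on this scale CDH6 and EPCAM stood highest, and CDH2 and VIM lowest, among the 8 tested genes. ZEB1 had 0.217 normalized reads per kilobase, and with 2 reads in each DMSO library its place is at the limit of detection.

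**Figure D1:**
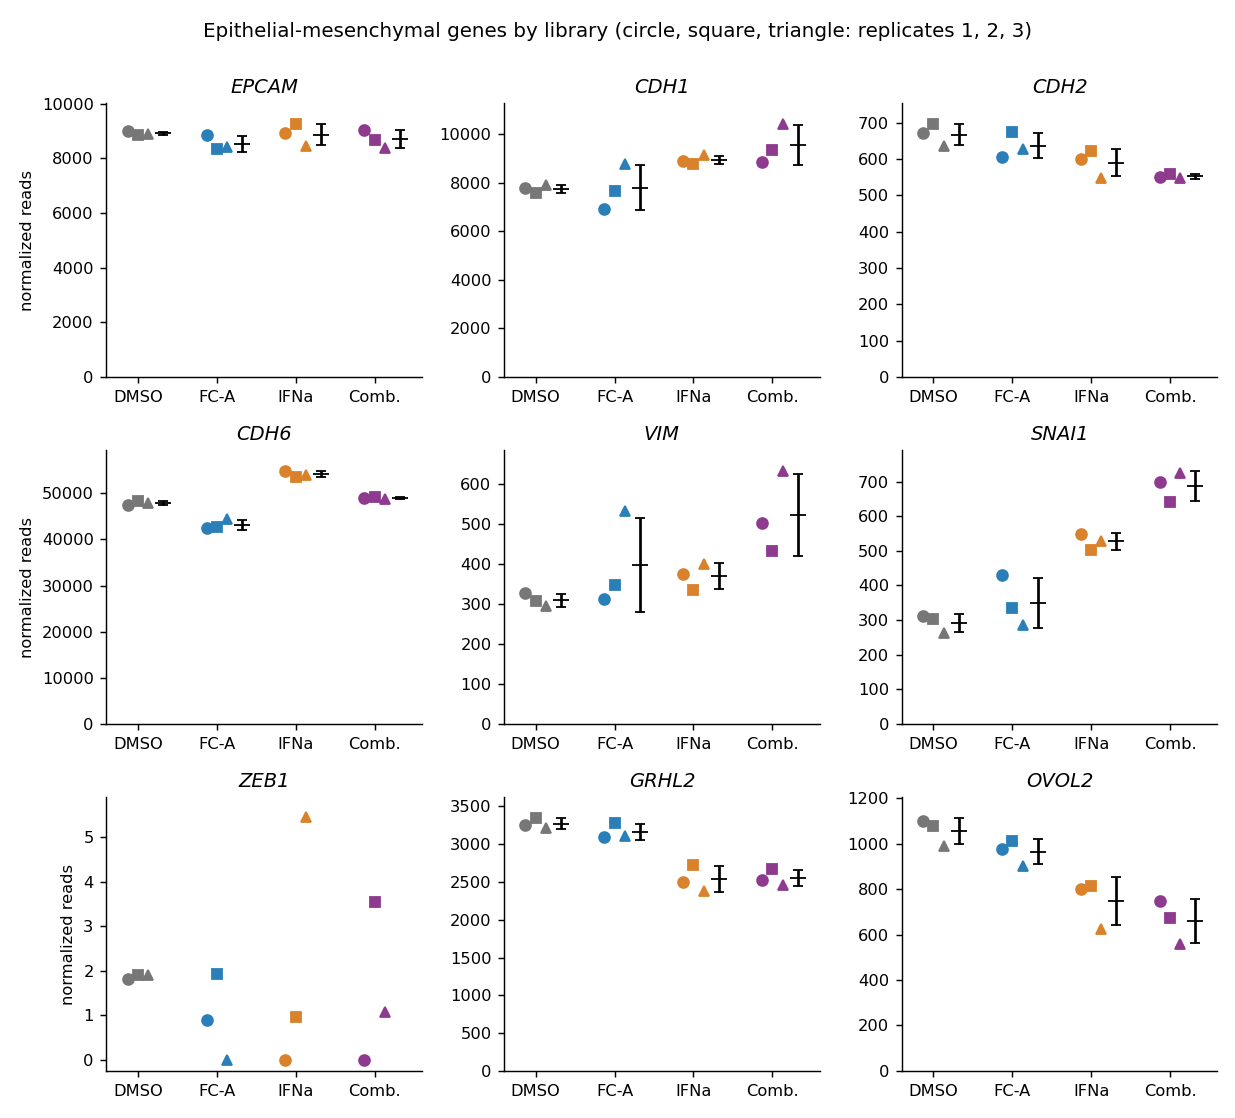
Normalized reads (vertical axis, from 0) of the 9 genes with values in DMSO, FC-A, IFNa and Combination libraries; symbols are replicates and black bars the mean ± SD of 3 libraries, left out for ZEB1, which had 0 to 5 reads. SNAI1 is higher, and GRHL2 and OVOL2 are lower, in all 6 libraries with IFNa, while EPCAM lies between 8335 and 9247 throughout.

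EPCAM, a cell surface adhesion protein of epithelia and carcinomas, was at 8990.1, 8866 and 8896 normalized reads in DMSO. It was at 8872, 8335 and 8418 with FC-A. The values were 8924, 9247 and 8456 with IFNa, and 9044, 8671 and 8394 with the Combination. No group stood apart from another. The log2 difference of IFNa from DMSO was -0.01 (95% interval -0.11 to 0.09; limma, adjusted p = 0.91), so with the deposited scaling a change beyond a ratio of 0.927 to 1.07 lies outside the interval. The size and the call of this difference depend on the scaling: it was -0.01 with TMM scaling, -0.25 after quantile normalization (adjusted p = 0.000136) and -0.20 with equal totals (adjusted p = 0.000863), where the median of all genes was also -0.20.

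CDH1 encodes E-cadherin, the main adhesion protein of epithelial junctions. Its normalized reads were 7769, 7588 and 7906 in DMSO, and 6927, 7675 and 8776 with FC-A. They were 8883, 8791 and 9136 with IFNa, and 8847, 9367 and 10436 with the Combination. All 6 libraries with IFNa lay above all 6 without it, by a narrow margin against FC-A replicate 3 (8776). The log2 difference was 0.20 for IFNa against DMSO (SE 0.0754, n = 3 per group; adjusted p = 0.038) and 0.30 for the Combination against FC-A (1.23-fold, adjusted p = 0.00485). The first call was lost in 12 of 26 alternative settings, among them 7 that left out 1 library (DMSO 1, 2 or 3, IFNa 1, 2 or 3, or FC-A 2; adjusted p = 0.0518 to 0.105). With equal totals, CDH1 differed by 0.01 (adjusted p = 0.896), which was 0.21 above the median of all genes. After quantile normalization it was at -0.02.

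FC-A left the mean of CDH1 at 7792 ± 930.3 normalized reads (SD, n = 3), against 7754 ± 159.7 in DMSO. Its effect averaged over cells with and without IFNa was 0.05 (95% interval -0.07 to 0.16; adjusted p = 0.688). Replicate 3 was the highest of the 3 in every group, at 1.2 times the mean of the other two with FC-A and 1.15 times with the Combination. In DMSO and with IFNa this ratio was 1.03.

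CDH2 encodes N-cadherin, the cadherin of neural and mesenchymal cells. It had 670.3, 695.5 and 636 normalized reads in DMSO, and 605.9, 673.3 and 628.2 with FC-A. With IFNa it had 598.7, 620.6 and 547.7, and with the Combination 550.9, 559 and 546.7. The Combination libraries were the tightest of the 4 groups (SD 6.24) and lay below all DMSO and FC-A libraries, whereas IFNa overlapped FC-A. The log2 difference was -0.18 for IFNa against DMSO (SE 0.0679; adjusted p = 0.0416), -0.27 for the Combination against DMSO (adjusted p = 0.00442) and -0.20 for the Combination against FC-A (adjusted p = 0.0242). The first of these was lost in 10 of 26 settings, with adjusted p up to 0.15, including without DMSO 1 or 2, IFNa 1 or 3 and Combination 1 or 2, and in the authors' deposited table (adjusted p = 0.0725). The third was lost in 4 of 26 settings, 3 of them without 1 library (FC-A 2, Combination 1 or Combination 3; adjusted p up to 0.106). The change of CDH2 under the Combination held in all 26.

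CDH1 and CDH2 thus moved apart within the libraries. The ratio of their normalized reads, CDH1 to CDH2, was 11.6, 10.9 and 12.4 in DMSO and 11.4, 11.4 and 14 with FC-A. It was 14.8, 14.2 and 16.7 with IFNa and 16.1, 16.8 and 19.1 with the Combination. Every library with IFNa had a higher ratio than every library without it, by a narrow margin between IFNa replicate 2 (14.2) and FC-A replicate 3 (14). A ratio within a library does not depend on a scaling by 1 factor per library, but quantile normalization can alter it. For IFNa against DMSO, the log2 changes of CDH1 and CDH2 were 0.20 and -0.18 with the deposited scaling. After quantile normalization they were -0.02 and -0.25. The ratio shows unequal change of the 2 genes, not which of them changed.

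CDH6 encodes K-cadherin, a type II cadherin. Its normalized reads were 47486, 48289 and 47899.7 in DMSO, and 42419.8, 42666 and 44435 with FC-A. They were 54916, 53638 and 54028 with IFNa, and 49013, 49209 and 48844 with the Combination. No library of any group reached into another group: the order was FC-A, DMSO, Combination, IFNa. IFNa against DMSO gave 0.18 on the log2 scale (SE 0.0435, adjusted p = 0.00395), and the Combination against FC-A gave 0.18 (adjusted p = 0.00303). The direction of both depends on the scaling: with equal totals each was -0.01, and after quantile normalization they were -0.11 and -0.06. The median of all genes also fell under those scalings, and CDH6 lay 0.18 above it with equal totals and 0.01 below it after quantile normalization for IFNa.

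CDH6 was lower with FC-A in every library, both without and with IFNa, and the average of both effects passed the test. FC-A against DMSO gave a log2 difference of -0.15 (95% interval -0.24 to -0.06; unadjusted p = 0.00398, adjusted p = 0.245) and the Combination against IFNa gave -0.14 (95% interval -0.24 to -0.05; adjusted p = 0.2). Neither passed on its own in the limma fit without a replicate block, the second passed with the block (adjusted p = 0.0432), and the authors' deposited table gave -0.15 (adjusted p = 0.00135) for FC-A against DMSO and an adjusted p of 0.00224 for IFNa against the Combination. Averaged over both, the effect was -0.15 (SE 0.0307, 1.11-fold lower, adjusted p = 0.0272). It kept its call in 14 of 24 alternative settings, and was lost without any 1 of the DMSO or Combination libraries, FC-A 2 or IFNa 1 (adjusted p up to 0.0964), while its size stayed between -0.16 and -0.11. In limma, the Combination was not called against DMSO (log2 0.03, SE 0.0435, adjusted p = 0.547), although its 3 libraries lay above all 3 of DMSO. Means were 47892 ± 401 normalized reads (SD) in DMSO and 49022 ± 182 with the Combination. The SE of the test also draws on the spread of other genes. The log2 difference was -0.20 after quantile normalization (adjusted p = 0.00156) and -0.15 with equal totals (adjusted p = 0.00663).

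VIM encodes vimentin, the filament protein of mesenchymal cells. Its normalized reads were 326.5, 307.1 and 294.6 in DMSO, and 312.7, 346.8 and 530.7 with FC-A. They were 375.3, 333.1 and 398.3 with IFNa, and 501.3, 431.1 and 632.1 with the Combination. The Combination lay above DMSO and above IFNa in every library, but FC-A replicate 3 (530.7) reached into it. The Combination was 0.73 above DMSO on the log2 scale (SE 0.17, 1.66-fold, adjusted p = 0.00265), a call that held in all 26 alternative settings (0.55 to 0.86). IFNa alone gave 0.25 (adjusted p = 0.247) and FC-A alone 0.32 (adjusted p = 0.639). All IFNa libraries lay above all DMSO libraries, and that difference passed when limma was fitted to only the groups compared (adjusted p = 0.0407).

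Replicate 3 stood apart for VIM: it was 1.61 times the mean of the other two with FC-A and 1.36 times with the Combination, but 0.93 times in DMSO. The Combination against FC-A gave 0.41 (adjusted p = 0.0578), and without FC-A replicate 3 it gave 0.64 (adjusted p = 0.00133). The Combination against IFNa gave 0.48 (adjusted p = 0.265), and without replicate 3 of all groups 0.39 (adjusted p = 0.0364). The average FC-A effect was 0.40 (adjusted p = 0.112). It passed with DESeq2 (adjusted p = 0.0213), with the replicate block (0.00682) and without FC-A replicate 1 (0.0312). In bulk RNA, more cells of a type and more RNA per cell cannot be told apart.

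Fibroblast markers were read beside VIM, and their rise was mainly with IFNa, where VIM was not called. Their sum over 8 genes was 1076 to 1152 normalized reads in DMSO, 1237 to 1276 with FC-A, 1629 to 2162 with IFNa and 1808 to 2445 with the Combination. Most of it was COL1A1, with means of 815, 951, 1676 and 1788, while COL1A2 fell from 78.1 to 44.6 with IFNa (adjusted p = 0.00441). COL1A1 was 2.04-fold higher with IFNa than with DMSO (limma, adjusted p = 8.97e-06). Between the Combination and IFNa it differed 1.07-fold (adjusted p = 0.765), where VIM differed 1.4-fold (adjusted p = 0.265). FAP was not called with IFNa (adjusted p = 0.245). The defining markers DCN and LUM were listed at 0 or at no more than 1.904 normalized reads in every library. VIM-AS1, a transcript antisense to VIM that shares 641 exon bases with it in GENCODE 29, had 40.1, 80.5 and 88.6 normalized reads with the Combination and 24.1 to 48 in the other groups. The library kit keeps the strand, but whether the counting used it is not given in the sources used here, so the part of VIM-AS1, like that of the fibroblast markers, in the VIM values was not tested.

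Promoter windows are shown for CDH2 and VIM, 2 mesenchymal markers that moved in opposite directions with the Combination, and for ZEB1, which was almost silent. Each is the 250 bases before the RefSeq gene start in GRCh38.p14, 5′ to 3′ on the strand of the gene; the authors' build was hg19, and no coordinates of theirs are used. Of the 10 genes, these 3 had their windows used here, without regard to how the genes changed. The windows of the other genes are not reported here. Capitals mark CG dinucleotides in CDH2 and VIM, and in ZEB1 the E-box CAGGTG that SNAI and ZEB factors are known to bind.
CDH2, chr18:28177131-28177380, minus strand: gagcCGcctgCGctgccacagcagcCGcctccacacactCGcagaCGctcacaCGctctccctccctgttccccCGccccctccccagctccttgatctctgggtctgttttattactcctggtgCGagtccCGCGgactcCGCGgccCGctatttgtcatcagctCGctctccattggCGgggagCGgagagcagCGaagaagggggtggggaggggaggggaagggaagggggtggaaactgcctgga
VIM, chr10:17227991-17228240, plus strand: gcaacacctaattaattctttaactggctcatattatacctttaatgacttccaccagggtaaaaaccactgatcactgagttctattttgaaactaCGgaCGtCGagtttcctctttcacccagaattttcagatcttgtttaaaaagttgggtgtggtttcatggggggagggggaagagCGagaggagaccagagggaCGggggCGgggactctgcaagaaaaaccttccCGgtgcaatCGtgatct
ZEB1, chr10:31318167-31318416, plus strand: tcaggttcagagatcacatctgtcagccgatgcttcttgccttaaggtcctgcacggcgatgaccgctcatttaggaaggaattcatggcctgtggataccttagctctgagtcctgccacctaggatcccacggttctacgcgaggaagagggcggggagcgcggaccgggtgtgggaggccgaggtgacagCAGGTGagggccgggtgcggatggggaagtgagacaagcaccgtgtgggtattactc
The CDH2 window was richer in G and C (66%, with 17 CG dinucleotides) than that of VIM (46%, with 8). Searched on both strands, neither held CAGGTG, the wider E-box CANNTG (of which CAGGTG is a case), the core of the interferon response element (GAAA, any 2 bases, GAAA), the STAT motif TTCNNNGAA or the grainyhead motif AACCGGTT. The ZEB1 window held CAGGTG 57 bases before the start and a further CANNTG 234 bases before it. Of 35116 promoter windows of this length, 17.5% held CAGGTG, 61.8% CANNTG, 3.02% the interferon response core, 6.57% TTCNNNGAA and 0.117% AACCGGTT. These matches describe letters only.

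SNAI1, the Snail repressor, showed the steepest change of the 8 genes with IFNa, alone or added to FC-A. Its normalized reads were 311.1, 303.3 and 261.3 in DMSO, and 429.5, 333.3 and 287 with FC-A. They were 548.7, 501.6 and 529.2 with IFNa, and 699.7, 640.7 and 725 with the Combination. The groups rose in the order DMSO, FC-A, IFNa, Combination, and only DMSO and FC-A overlapped. IFNa against DMSO gave 0.85 on the log2 scale (SE 0.121, 95% interval 0.59 to 1.11, adjusted p = 5.17e-05). The Combination was 2.36-fold above DMSO (adjusted p = 1.18e-06) and 1.99-fold above FC-A (adjusted p = 1.11e-05). These 3 calls held in all 26 alternative settings, and 87.9% of all tested genes changed less with IFNa.

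For FC-A, no SNAI1 difference passed the threshold in the main fit, which has no replicate block. The Combination lay above IFNa in all 3 libraries, by 0.39 (unadjusted p = 0.00682, adjusted p = 0.215), and FC-A against DMSO gave 0.24 (adjusted p = 0.611). The average FC-A effect was 0.32 (95% interval 0.13 to 0.50; adjusted p = 0.0809). It passed with DESeq2 on the recovered reads (adjusted p = 0.012) and without FC-A replicate 3 (0.38, adjusted p = 0.021). The same effect passed with the replicate block (adjusted p = 0.0076) and without replicate 3 of all groups (0.33, adjusted p = 0.021). With the block, the Combination against IFNa also passed (adjusted p = 0.026). A processed pseudogene, SNAI1P1, averaged 1.16 normalized reads.

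ZEB1, the repressor that commonly marks advanced mesenchymal conversion, was near the detection limit. Its reads were 2, 2 and 2 in DMSO, 1, 2 and 0 with FC-A, 0, 1 and 5 with IFNa, and 0, 3 and 1 with the Combination. No group stood apart, and at this depth no difference was detectable. Its antisense neighbour ZEB1-AS1 averaged 16.3 normalized reads.

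GRHL2, a grainyhead factor that activates CDH1 and other junction genes, fell with IFNa. It had 3249.7, 3349.5 and 3208 normalized reads in DMSO, and 3091, 3280.5 and 3106 with FC-A. It had 2501, 2718 and 2381 with IFNa, and 2520.3, 2673 and 2464 with the Combination. All 6 libraries with IFNa lay below all 6 without it, with the IFNa and Combination groups overlapping. IFNa against DMSO gave -0.37 on the log2 scale (SE 0.0547, 1.29-fold lower, adjusted p = 7.33e-05) and the Combination against FC-A gave -0.31 (adjusted p = 0.000338). Both held in all 26 alternative settings. The average FC-A effect was -0.02 (95% interval -0.10 to 0.06; adjusted p = 0.841).

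OVOL2, a zinc finger factor that represses ZEB1 in epithelia, fell further. Its normalized reads were 1101, 1077 and 989.7 in DMSO, and 974.7, 1012 and 904.1 with FC-A. They were 799.6, 815.7 and 626.3 with IFNa, and 748.3, 675 and 558.4 with the Combination. Again the 6 libraries with IFNa were all below the 6 without, and replicate 3 was lowest in each group. IFNa against DMSO gave -0.51 (SE 0.111, 1.42-fold lower, adjusted p = 0.00188) and the Combination against FC-A gave -0.55 (1.47-fold lower, adjusted p = 0.000901), and both held in all 26 alternative settings. The average FC-A effect was -0.15 (95% interval -0.32 to 0.01; adjusted p = 0.331). SNX5, a gene that shares 59 exon bases with OVOL2 on the same strand in GENCODE 29, averaged 4000.4 normalized reads, and its part in the OVOL2 values was not tested.

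The ratio of SNAI1 to OVOL2 normalized reads within a library joins the largest rise and the largest fall with IFNa among the 8 genes. It was 0.283, 0.282 and 0.264 in DMSO, and 0.441, 0.329 and 0.317 with FC-A. It was 0.686, 0.615 and 0.845 with IFNa, and 0.935, 0.949 and 1.3 with the Combination. The 4 groups did not overlap on this ratio, which rose from a mean of 0.276 to 1.06. The genes of the ratio were picked after their values were seen.

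**Figure D2:**
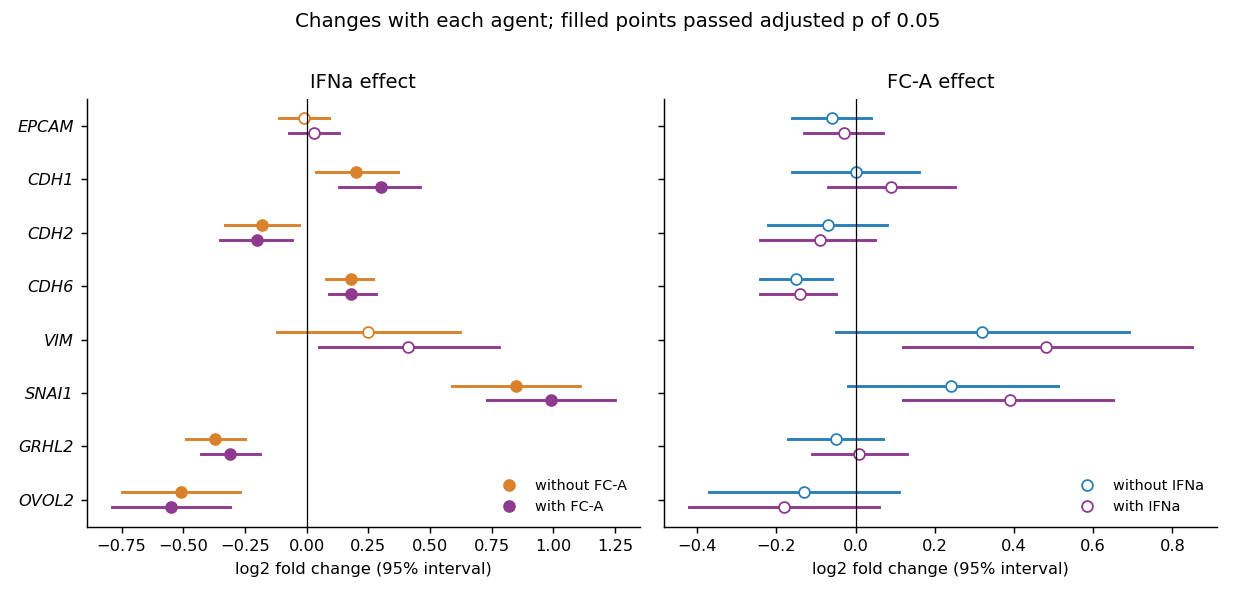
Log2 fold change with its 95% interval (horizontal axis) for 8 genes, for IFNa without and with FC-A (left) and FC-A without and with IFNa (right); filled points passed an adjusted p of 0.05. SNAI1, at 0.85 and 0.99, and OVOL2, at -0.51 and -0.55, lie farthest out on the left, and no single comparison passed on the right.

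The number of the 8 tested genes that changed is read against the share of all genes that did, and the difference between these shares was not tested. With IFNa against DMSO, 6 of 8 were called, where 46.9% of all tested genes were called, 25.4% higher and 21.5% lower. CDH1, CDH6 and SNAI1 were higher, with CDH1 and CDH6 below 0 after quantile normalization and CDH6 also with equal totals, and CDH2, GRHL2 and OVOL2 were lower. The Combination against DMSO also called 6 of 8, with VIM in place of CDH6 (all genes 48.3%). The Combination against FC-A called the same 6 genes as IFNa against DMSO (all genes 48.9%). IFNa against DMSO and the Combination against DMSO share their DMSO libraries, so their values are set side by side and not counted as separate evidence. Of the 8 genes, 5 separated all 6 libraries with IFNa from all 6 without, as did 37.7% of all tested genes.

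Few calls were made for FC-A in the fit without a replicate block. FC-A against DMSO called 0 of 8 in limma (1 at an unadjusted p under 0.05, CDH6), where 0.3% of all genes were called, and DESeq2 called 1. The Combination against IFNa called 0 of 8 (3 at an unadjusted p under 0.05: CDH6, VIM and SNAI1), where 0.331% of all genes were called. The replicate block called 3 (the same 3 genes) and DESeq2 called 1. The average effect called 1 of 8, CDH6, against 1.96% of all genes, and 4 of 8 with the replicate block (CDH6, VIM, SNAI1 and OVOL2).

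Whether FC-A acted differently in the presence of IFNa was tested as an interaction. It called 0 of 8 genes, with 0 at an unadjusted p under 0.05. The same test called 0% of all genes in limma (627 genes at an unadjusted p under 0.05), 0 in edgeR and 3 genes in DESeq2. The estimates ran from -0.05 for OVOL2 to 0.16 for VIM, whose 95% interval was -0.35 to 0.68. The intervals of SNAI1 (-0.23 to 0.51) and OVOL2 (-0.38 to 0.29) also leave room for sizeable differences, while that of CDH6 (-0.13 to 0.14) was narrow.

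**Figure D3:**
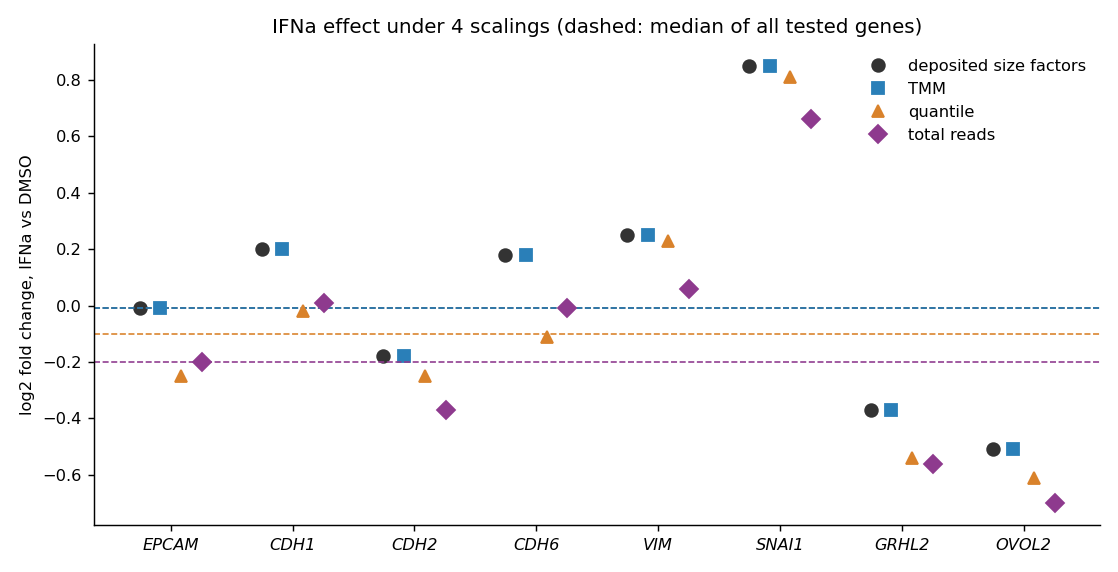
Log2 fold change of 8 genes for IFNa against DMSO (vertical axis) under 4 scalings, with the median of all tested genes under each as a dashed line. SNAI1 stays between 0.66 and 0.85 and GRHL2 and OVOL2 stay below their medians, whereas CDH1 and CDH6 cross 0 and EPCAM moves from -0.01 to -0.25.

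Related genes were read from 13 lists of 188 genes, of which 169 were tested. With IFNa against DMSO, 73 were higher, 35 lower and 61 not called. Of all tested genes, 25.4% were called higher and 21.5% lower in that comparison. The counts of each list are read against these shares, and the difference was not tested. These lists cover the neighbours of the members by role, and each is given below by its counts and its median log2 change, beside a median of -0.01 over all genes.

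Among 13 other transcription factors of the transition, 4 rose and 3 fell with IFNa (median 0.09). SOX9, a factor of progenitor and duct cells, rose from a mean of 1282 to 4452 normalized reads (log2 1.79, adjusted p = 6.97e-12), and RUNX2, a bone factor, from 177 to 501 (1.51, adjusted p = 5.91e-08). TWIST1, a classical driver of the transition, fell from 35.3 to 14.3 (-1.31, adjusted p = 0.00478), and the SNAI1 relative SNAI3 from 32 to 14.9 (-1.12, adjusted p = 0.019). The SNAI3 call was lost without DMSO 3, IFNa 1 or IFNa 2 (adjusted p up to 0.0891). The genes of this list that changed did not share a direction.

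Among 16 epithelial transcription and splicing factors, 4 rose and 7 fell (median -0.14). GRHL3, a relative of GRHL2, fell from 804 to 408 (-0.98, adjusted p = 2.97e-05), and the ETS factor EHF from 1948 to 974 (-1.01, adjusted p = 0.00203). OVOL1 moved against its relative OVOL2, from 517 to 1171 (1.18, adjusted p = 6.5e-09). GRHL2 and GRHL3 thus both fell, while OVOL1 and OVOL2 went opposite ways, and these 4 calls held in all 26 alternative settings.

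Of the 6 other cadherins tested, 1 rose and 2 fell (median -0.37). P-cadherin (CDH3) stood at 6336 in DMSO and 6893 with IFNa (0.12, adjusted p = 0.019), a direction that turned under quantile normalization (-0.10) and equal totals (-0.07), and its call was lost without DMSO 1, DMSO 3 or IFNa 2. CDH16, the kidney cadherin, fell from 33.5 to 14.9 (-1.10, adjusted p = 0.000821), and CDH5 of endothelium from 122 to 82.7 (-0.53, adjusted p = 0.042). The CDH5 call was lost in 10 of 26 settings, among them without DMSO 2 or 3, FC-A 2 or any 1 of the IFNa libraries (adjusted p up to 0.184). Among 15 partners of cadherins and nectins, 8 rose and 3 fell (median 0.22). NECTIN2 rose from 1912 to 3839 (1.01, adjusted p = 6.64e-10) and NECTIN4 fell from 1473 to 703 (-1.08, adjusted p = 0.000206). Vinculin (VCL), which links cadherins and integrins to actin, rose from 11936 to 20898 (0.81, adjusted p = 1.16e-05).

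Junction genes were mixed. Of 18 tight junction genes, 8 rose and 4 fell (median 0.12), led by claudin CLDN1, from 5094 to 29926 normalized reads (2.56, 5.9-fold, adjusted p = 5.19e-08), against CLDN9, from 372 to 170 (-1.12, adjusted p = 2.14e-06). Of 11 desmosome genes, 3 rose and 4 fell (median -0.06): desmoplakin (DSP) rose from 30449.7 to 44488 (0.55, adjusted p = 5.75e-05) and desmocollin DSC3 fell from 980.1 to 631 (-0.63, adjusted p = 1.67e-05). Of 14 polarity genes, 6 rose and 3 fell (median 0.11). Of 10 relatives, partners and surface proteases of EPCAM, 7 rose and 0 fell (median 0.18). CD44, a surface receptor of hyaluronan, rose from 4538 to 7015 (0.63, adjusted p = 6.81e-06), while EPCAM itself did not pass the test.

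On the mesenchymal side, 6 of 16 genes rose and 2 fell (median 0.34). Fibronectin (FN1) rose from 120758 to 183588 (0.60, adjusted p = 0.000907) and the receptor kinase AXL from 174 to 447 (1.36, adjusted p = 9.46e-07). Of 8 other intermediate filament genes outside the keratins, 5 rose and 2 fell (median 0.56). The neuronal filament genes PRPH and NEFH each rose by 2.08 (log2; adjusted p = 3.1e-06 for PRPH and 0.000266 for NEFH). VIM did not pass the test in that comparison.

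Genes that act on SNAI1 and on cadherins were covered as well. Of 15 genes for TGF-beta ligands, receptors and SMADs, 8 rose and 2 fell (median 0.29): SMAD3 rose from 5804 to 11540 (0.99, adjusted p = 5.07e-07) and BMP7, a ligand of the opposing branch, fell from 8602 to 4406 (-0.96, adjusted p = 4.75e-07). Of 17 kinases, ligases and corepressors that control SNAI1, 7 rose and 2 fell (median 0.07), among them FBXL14, a ligase subunit that targets SNAI1 (0.46, adjusted p = 7.32e-05), and LATS2, a kinase (0.79, adjusted p = 8.04e-06). Of 12 genes for cadherin turnover and shedding, 7 rose and 1 fell (median 0.15), among them CBLL1, a ubiquitin ligase of E-cadherin (0.47, adjusted p = 1.53e-06).

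**Figure D4:**
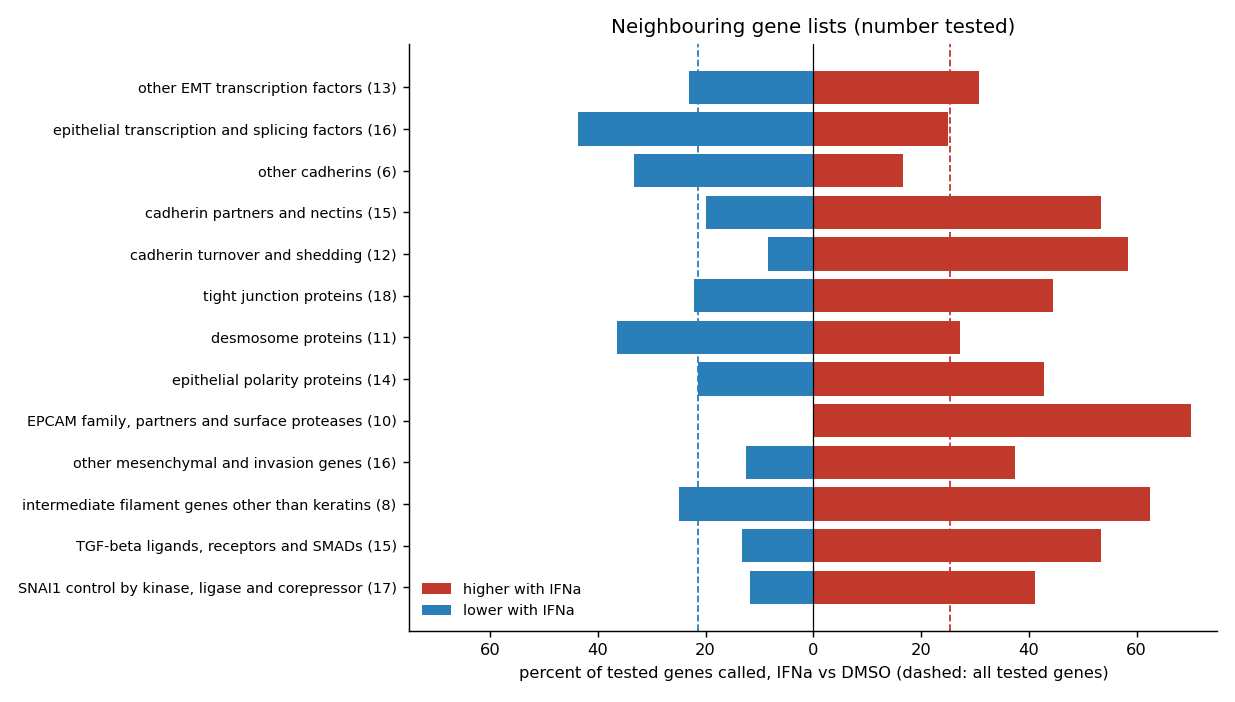
Percent of the tested genes of each of 13 lists called higher (right) or lower (left) with IFNa against DMSO; dashed lines give all tested genes, at 25.4% and 21.5%, and the number tested stands beside each list name. The EPCAM relatives list has 7 of 10 genes higher and 0 lower, and the epithelial factor list has 7 of 16 lower.

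For FC-A, 0 of the 169 genes were called in FC-A against DMSO, in the Combination against IFNa or in the interaction. The average effect called 5, against 1.96% of all genes. SOX4, a factor upstream in the transition, was higher by 0.29 on the log2 scale (adjusted p = 0.00925), the SMAD regulator SKIL by 0.24 (adjusted p = 0.0247) and TGFB1 by 0.21 (adjusted p = 0.0375). The epithelial factor KLF5 was lower, at -0.18 (adjusted p = 0.0329), as was the receptor TGFBR2, at -0.17 (adjusted p = 0.0197). Each of the 5 lost its call in at least 1 of 24 alternative settings, SOX4 in 1 (without a variance trend), TGFBR2 and SKIL in 6 each, KLF5 in 10 and TGFB1 in 12, most of them with 1 library left out.

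The profile of each member over the 12 libraries was set beside all other tested genes, as a description: the libraries share their groups, and the 6 with IFNa stood apart from the 6 without for 37.7% of all tested genes. GRHL2 was most like VRTN (Pearson r = 0.994), JAKMIP2 (0.984) and HIP1 (0.983). SNAI1 was most like BHLHE40 (0.984), TMEM87A (0.98) and TRIP10 (0.979), and OVOL2 most like HUNK (0.983), NCOA5 (0.981) and RCN2 (0.979). CDH1 was nearest to EXPH5 (0.974), CDH6 to ZNF608 (0.968), CDH2 to USP5 (0.957), VIM to MAN2B2 (0.947) and EPCAM to SNRPD1 (0.896). Among the members, GRHL2 followed OVOL2 (0.915), and CDH2 followed OVOL2 (0.919) and GRHL2 (0.901). SNAI1 ran against GRHL2 (-0.892) and OVOL2 (-0.853), and CDH1 ran against OVOL2 (-0.89) though with SNAI1 (0.687).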

How the data were processed

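Messenger RNA of 12 OVCAR-3 libraries (4 groups of 3, 6 hours) was measured. Per the submitters' processing notes, bcl2fastq 2.20, STAR 2.7.3, FastQC and DESeq2 1.24.0 were used with genome build hg19. The sources used here name no counting program or annotation. The deposited signal is the authors' normalized count per gene and library. Dividing by each library's smallest step gave whole reads for 100% of values (tolerance 0.01). The authors' deposited tables of comparisons hold log2 fold changes, a test score and p-values, from pairs of groups.

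Here log2(normalized reads + 1) was tested with limma 3.58.1 (R 4.3.3; variance trend, all 12 libraries, two-sided), on 15990 genes with a mean of at least 10; 12045 genes lay under it. P-values were adjusted by Benjamini-Hochberg over all genes tested, with a threshold of 0.05, in 7 comparisons, including the FC-A effect averaged over both backgrounds and the interaction. Fold changes are on the log2(value + 1) scale and understate changes of low genes. Alternatives were other pseudocounts (0.5, 8), filters, TMM, quantile normalization, equal totals (chosen after seeing the data), edgeR 4.0.16 and DESeq2 1.42.0 on the recovered reads, a replicate block, and each library left out. The members and lists were chosen with earlier results of these data known. Named list genes are up to 4 per list with the largest called change for IFNa against DMSO, and those called for FC-A; not all of them are printed, and some are not reported here. The limma fit was tested on simulated data. Leukocyte markers (5 of 8 with values) summed to 195 to 313 normalized reads per library, endothelial markers (5 of 6) to 188 to 373.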

Additional observations from a re-analysis of the deposited data

How the results depend on the processing

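The IFNa calls of SNAI1, GRHL2 and OVOL2 held in all 26 alternative settings, against DMSO and against FC-A, as did those of CDH2, VIM, SNAI1, GRHL2 and OVOL2 for the Combination against DMSO. These settings draw on the same 12 libraries and are not independent. Leaving out a library of a group not compared changes the p-value but not the log2 difference. Scaling turned other directions, and the cause was not tested. Under quantile normalization the log2 change was -0.0232 for CDH1, -0.11 for CDH6 and -0.10 for CDH3 with IFNa against DMSO, -0.20 for CDH6 in the Combination against DMSO, and -0.0629 for CDH6 and -0.20 for EPCAM in the Combination against FC-A. With equal totals it was -0.0125 for CDH6 and -0.0694 for CDH3 (IFNa against DMSO), -0.15 for CDH6 (Combination against DMSO), and -0.014 for CDH6 and -0.17 for EPCAM (Combination against FC-A). Of the 108 listed genes called with IFNa, the 55 chosen by the naming rule were refitted in each setting, and 41 of these held in all. Calls for IFNa against DMSO, the Combination against DMSO and the Combination against FC-A numbered 7507, 7724 and 7818 genes and stayed within 1.5 times.

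Counts for FC-A moved more. Members called in FC-A against DMSO (0) became 1 with DESeq2 and 1 in the authors' deposited table. In the Combination against IFNa (0) they became 3 with the replicate block, 1 without replicate 3, 1 with DESeq2 and 1 in the authors' table. For the average effect (1) they became 0 without a filter, 0 after quantile normalization, 4 with the replicate block, 2 without replicate 3, 3 with DESeq2, and 0 to 2 when 1 library was left out. All genes called in FC-A against DMSO (48) became 20 without a variance trend, 26 with only the groups compared, 289 with the replicate block, 134 without replicate 3, 170 with DESeq2, 155 in the authors' table and 16 to 119 with 1 library left out. In the Combination against IFNa (53) they became 11, 10, 1009, 1187, 239, 231 and 4 to 510 in the same order. For the average effect (314) they became 124 without a variance trend, 1675 with the replicate block, 1022 without replicate 3, 634 with DESeq2 and 132 to 953 with 1 library left out. For the interaction (0) they became 1 with the replicate block, 1 without replicate 3 and 3 with DESeq2.

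All 18 correlations between libraries of the same number were above 0 (0.0176 to 0.188 for replicate 1, 0.0203 to 0.113 for replicate 2, 0.188 to 0.395 for replicate 3), against -0.354 to 0.257 for different numbers. Of the 18, 10 exceeded 0.1, and replicate 3 deviated together most. In 25 of 36 combinations of a library with another group, the library correlated best with its own number. For 5 of 12 libraries this held in every other group. The labels do not say what the numbers mark, so the main fit left the libraries unpaired. Whether the numbers pair the libraries was not tested, and the calls for FC-A depend on this choice. With the replicate block, VIM (adjusted p = 0.0258), SNAI1 (0.026) and CDH6 (0.0432) passed in the Combination against IFNa, and VIM (0.00682), SNAI1 (0.0076) and OVOL2 (0.0445) in the average FC-A effect. Where 1 library is left out of a group, the fit pools the spread over all groups. ZEB1 is limited by depth, with 0 to 5 reads per library.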
